A study of Homo sapiens with 6 samples.

Results

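The genes described here were 10 immediate early and AP-1 genes: FOSL1, FOSL2, FOS and FOSB of the FOS family, JUN, JUNB and JUND of the JUN family, the small MAF gene MAFF, the zinc finger gene EGR1, and the early response gene IER3. They were selected by gene symbol, with earlier results of these data known, and all 10 were found among the 28008 genes of the count table. Transcripts were profiled by RNA-Seq in DU-145-DR cells, a derivative of the human prostate cancer (PC) cell line DU-145 that was selected for resistance to docetaxel (DTX), a microtubule-stabilizing drug. The cells carried tet-MUC1shRNA, a hairpin RNA against MUC1 whose expression is switched on by doxycycline (DOX). In the DOX-negative group, 3 cultures received vehicle, 0.1% DMSO, and in the DOX-positive group, 3 cultures received DOX at 500 ng/ml for 7 days. The labels mention the hairpin with the DOX-positive cultures alone, and the DOX-negative cultures, labeled only as DTX resistant, were taken to carry it as well from the description of the line in the study. No library of DOX-treated cells with a control hairpin was analysed here, so that effects of DOX itself and of silencing MUC1 cannot be told apart. Cultures of 1 cell line were compared, and the p-values measure the spread between these cultures.

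Dimers of FOS and JUN family proteins form the transcription factor AP-1, which binds the heptamer TGANTCA and, with ATF family partners, the octamer TGACGTCA. Many of these genes are immediate early genes: mitogens, stress and cytokines induce them within minutes through MAP kinases, serum response factor and its ternary complex partners, without new protein synthesis. In epithelial cancers FOSL1 is often the main FOS protein, and the AP-1 complex is known for its roles in proliferation, invasion and inflammation. The comparison of DOX-positive with DOX-negative cells asks how the transcripts of these factors differ after MUC1 is silenced. MUC1 itself had 387, 484 and 396 reads in the DOX-negative libraries and 75, 74 and 66 reads in the DOX-positive libraries. The fitted log2 fold change was -2.52 ± 0.146 (SE; adjusted p 4.47e-11 by edgeR). The libraries held between 15092691 and 23243713 counts, and a floor of 3 counts corresponded to between 0.129 and 0.199 CPM (read counts scaled to library size), for counting error only.

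Promoters of 5 of the genes are shown to set genes that rose beside genes that were not called, with the motifs of the factors known to act on this family marked in capitals. RefSeq promoter sequences (GRCh38.p14, 250 bases before to 50 bases after the start site) were matched for 8 of the 10 genes, in 9 windows, with MAFF having more than 1 window and with FOSL1 and IER3 not matched. Each is printed 5′ to 3′ on the strand of the gene. JUN (chr1:58783998-58784297, minus strand), JUND (chr19:18281573-18281872, minus strand) and FOSL2 (chr2:28392608-28392907, plus strand) rose on the count scale. EGR1 (chr5:138465229-138465528, plus strand) and FOS (chr14:75278578-75278877, plus strand) were not called.
JUN: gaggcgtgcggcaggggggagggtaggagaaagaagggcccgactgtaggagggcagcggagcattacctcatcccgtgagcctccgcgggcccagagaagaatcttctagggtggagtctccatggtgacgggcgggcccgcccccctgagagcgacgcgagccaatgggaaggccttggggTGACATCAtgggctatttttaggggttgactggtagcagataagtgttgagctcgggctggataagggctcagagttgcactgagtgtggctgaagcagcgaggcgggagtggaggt
JUND: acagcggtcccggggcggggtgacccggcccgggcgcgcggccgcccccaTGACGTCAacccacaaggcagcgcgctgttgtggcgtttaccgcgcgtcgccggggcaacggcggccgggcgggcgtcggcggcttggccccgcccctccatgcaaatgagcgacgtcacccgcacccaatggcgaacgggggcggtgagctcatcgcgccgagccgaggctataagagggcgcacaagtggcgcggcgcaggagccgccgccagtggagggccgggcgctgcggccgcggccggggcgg
FOSL2: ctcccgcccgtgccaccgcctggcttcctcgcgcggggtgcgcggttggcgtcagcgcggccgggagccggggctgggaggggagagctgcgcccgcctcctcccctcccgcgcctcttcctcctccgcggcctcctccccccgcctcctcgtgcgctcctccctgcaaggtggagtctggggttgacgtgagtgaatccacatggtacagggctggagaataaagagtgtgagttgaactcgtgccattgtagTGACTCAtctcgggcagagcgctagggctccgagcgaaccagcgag
EGR1: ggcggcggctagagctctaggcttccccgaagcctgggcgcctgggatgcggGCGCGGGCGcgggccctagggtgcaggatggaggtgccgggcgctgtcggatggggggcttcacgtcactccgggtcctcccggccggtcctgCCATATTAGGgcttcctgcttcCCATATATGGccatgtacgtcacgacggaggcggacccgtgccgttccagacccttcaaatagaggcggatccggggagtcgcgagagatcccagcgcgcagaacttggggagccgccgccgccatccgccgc
FOS: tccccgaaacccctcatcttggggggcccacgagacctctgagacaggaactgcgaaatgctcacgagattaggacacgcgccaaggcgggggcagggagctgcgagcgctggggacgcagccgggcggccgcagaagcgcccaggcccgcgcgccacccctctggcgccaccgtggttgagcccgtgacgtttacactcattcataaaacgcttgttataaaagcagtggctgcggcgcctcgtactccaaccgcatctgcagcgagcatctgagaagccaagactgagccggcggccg

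The motifs searched on both strands were the AP-1 site TGANTCA, the cAMP response element (CRE) TGACGTCA, its variant TGACATCA, the EGR site GCGNGGGCG, and the CArG box bound by serum response factor. Of these, the AP-1 site, the CRE and its variant share letters but did not overlap in the windows of these genes. The JUN promoter held the variant TGACATCA, beginning 67 bases before the start site (position -67), and the JUND promoter held TGACGTCA at position -200. FOSL2 held TGACTCA at position 5, just downstream of the start site. The EGR1 window held a pair of CArG boxes, CCATATTAGG at position -105 and CCATATATGG at position -83, and the EGR site GCGCGGGCG at position -198. MAFF, in its window at chr22:38201744-38202043, held TGACGTCA at position -54, whereas the windows of FOS, FOSB and JUNB held none of these letters. Among 35116 human promoter windows of the same length, TGANTCA occurred in 7.71%, TGACGTCA in 1.85%, TGACATCA in 2.61%, the CArG box in 1.29% and GCGNGGGCG in 9.43%. Only exact matches within the window were searched, so sites with other letters or outside the window were not looked for. These matches describe the sequence only.

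On the scale of read counts, 6 of the 10 genes (FOSL1, FOSL2, JUN, JUNB, JUND and IER3) were higher in DOX-positive cells at an edgeR adjusted p under 0.05, 0 were lower, and 4 (FOS, FOSB, MAFF and EGR1) were not called. Over all 14292 genes tested, 13.0% were called higher and 13.7% were called lower. All 10 genes passed the filter on low counts. In the same 6 genes, every DOX-positive library lay above every DOX-negative library in CPM, a pattern seen in 19.5% of all genes tested. The changes were moderate, between 1.28-fold for FOSL2 and JUND and 1.76-fold for IER3. On the scale of the deposited length-normalized values (TPM), 0 of the 10 genes passed, and the changes of FOSL2 and JUND turned slightly negative. On that scale the median gene was lower by 0.32 (log2), compared with a median of -0.0034 from counts, and 5 short noncoding RNAs (RN7SK, RPPH1 and the signal recognition particle RNAs RN7SL1, RN7SL2 and RN7SL3) took from 34.4% to 64.4% of the total TPM in each library. With those 5 RNAs removed and the libraries rescaled, the same 6 genes were called. Because these are bulk samples, more cells expressing a gene and more RNA per cell cannot be told apart.

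**Figure D1:**
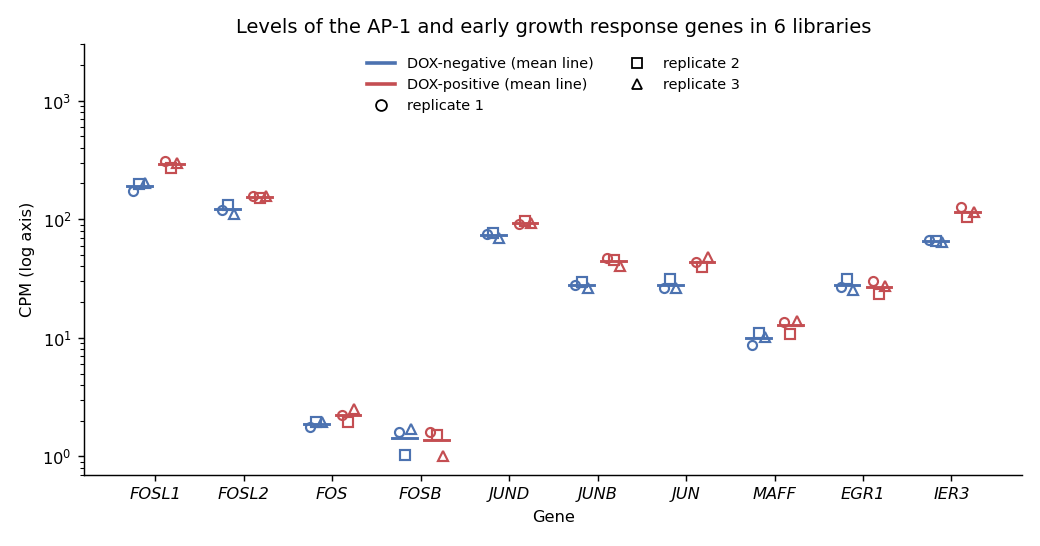
Level of each gene (CPM, log axis) in each of the 6 libraries, with blue symbols for DOX-negative, red symbols for DOX-positive, a symbol shape for each replicate number and a line at each group mean. The groups are separate for FOSL1, FOSL2, JUND, JUNB, JUN and IER3 and overlap for FOS, FOSB, MAFF and EGR1. Levels are not corrected for gene length, and on the deposited TPM scale, where 5 short noncoding RNAs take a varying share, FOSL2 and JUND do not rise.

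Within the FOS family, the abundant members rose on the count scale, and the scarce members were not called. On the deposited TPM scale FOSL1 was not called (log2 fold change 0.20), and FOSL2 did not rise. FOSL1 (chr11:65892049-65900573, minus strand, GRCh38), which encodes FRA-1, a FOS protein without the transactivation domain of FOS, was at 174, 198 and 203 CPM in the DOX-negative libraries and at 308, 269 and 295 CPM in the DOX-positive libraries. The lowest DOX-positive library was above the highest DOX-negative library. The mean rose from 192 ± 15.5 to 291 ± 19.8 CPM (SD, n = 3 each), which as a fitted log2 fold change was 0.60 ± 0.0699 (SE; adjusted p 1.30e-06 by edgeR). FOSL2 (chr2:28392448-28417312, plus strand), the gene of the related FRA-2, was at 119, 133 and 111 CPM in DOX-negative cells and at 158, 151 and 156 CPM in DOX-positive cells, again without overlap. The fitted log2 fold change was 0.36 ± 0.0698 (SE; adjusted p 0.000544 by edgeR), although it was -0.033 on the deposited TPM scale.

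FOS and FOSB, whose proteins carry a transactivation domain, were near the low end of what was measured. FOS (chr14:75278774-75282230, plus strand) had 32, 38 and 39 reads in the DOX-negative libraries and 51, 37 and 37 reads in the DOX-positive libraries. These correspond to 1.88 ± 0.104 and 2.21 ± 0.277 CPM (SD, n = 3 each), and the groups overlapped. The log2 fold change of FOS was 0.23 with a 95% interval from -0.32 to 0.78 (edgeR adjusted p 0.576), so that at this depth a rise like that of FOSL1 lies within the interval. FOSB (chr19:45467995-45475179, plus strand) had 29, 20 and 34 reads in DOX-negative cells and 37, 29 and 15 reads in DOX-positive cells. Its log2 fold change was -0.035, with a 95% interval from -0.73 to 0.66 (edgeR adjusted p 0.953). Its sign turned without DOX-negative replicate 1 (0.042) or 3 (0.10) and without DOX-positive replicate 3 (0.12). The gene ERCC1, on the opposite strand, spans FOSB without sharing exonic bases with it.

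All JUN family members rose on the count scale. On the deposited TPM scale JUN and JUNB were not called (log2 fold change 0.24 and 0.25), and JUND did not rise. JUN (chr1:58780788-58784327, minus strand), the member that activates transcription most strongly as a partner of FOS proteins, was at 26.4, 31.0 and 26.1 CPM in DOX-negative cells. In DOX-positive cells it was at 43.9, 39.8 and 47.7 CPM, above all DOX-negative libraries. The fitted log2 fold change was 0.65 ± 0.0949 (SE; adjusted p 2.33e-05 by edgeR). JUNB (chr19:12791496-12793315, plus strand), a member that can also restrain JUN-driven transcription, was at 28.1, 29.5 and 26.3 CPM in DOX-negative cells. It reached 46.9, 45.0 and 40.7 CPM in DOX-positive cells, without overlap, and its log2 fold change of 0.66 ± 0.0884 (SE; adjusted p 7.41e-06 by edgeR) was close to that of JUN. The JUNB gene shares 259 exonic bases with HOOK2 on the opposite strand, and the strand setting of the counting is not given in the sources used here. HOOK2 had between 136 and 219 reads, and its own change was not called (log2 fold change 0.11, edgeR adjusted p 0.623).

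JUND (chr19:18279760-18281622, minus strand), the JUN gene that is expressed in most resting cells, was at 74.6, 75.8 and 69.3 CPM in DOX-negative cells and at 91.6, 97.2 and 92.5 CPM in DOX-positive cells. The groups did not overlap. The fitted log2 fold change was 0.36 ± 0.0705 (SE; adjusted p 0.000614 by edgeR), while on the deposited TPM scale it was -0.037. The summed CPM of the JUN family was 129 ± 7.37 in DOX-negative cells, compared with 182 ± 0.784 after DOX (SD, n = 3 each), a ratio of 1.41. For the FOS family the summed CPM was 316 ± 18.7 in DOX-negative and 449 ± 23.4 in DOX-positive cells, a ratio of 1.42. These sums describe the families, without a test.

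IER3 showed the largest rise of the 10 genes, whereas EGR1 and MAFF were not called. IER3 (chr6:30743199-30744554, minus strand), a stress-inducible regulator of cell survival and of ERK signaling, was at 66.5, 65.6 and 63.6 CPM in the DOX-negative libraries. It was at 126, 104 and 114 CPM in the DOX-positive libraries, each well above the DOX-negative range. The mean rose from 65.2 ± 1.46 to 115 ± 10.9 CPM (SD, n = 3 each), which as a fitted log2 fold change was 0.82 ± 0.0758 (SE; adjusted p 4.83e-08 by edgeR). IER3-AS1, which shares 359 exonic bases with IER3 on the opposite strand, had between 2 and 13 reads per library, compared with between 1208 and 2885 reads for IER3.

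EGR1 (chr5:138465490-138469315, plus strand), a zinc finger factor that binds GC-rich sites and is induced alongside FOS by growth factors, was at 26.8, 31.3 and 25.3 CPM in DOX-negative cells and at 30.1, 23.5 and 27.2 CPM in DOX-positive cells. The groups overlapped in part: the highest value was that of DOX-negative replicate 2 and the lowest that of DOX-positive replicate 2. The log2 fold change was -0.043 (95% interval from -0.27 to 0.18, edgeR adjusted p 0.813), and it turned positive without DOX-negative replicate 2 (0.054) or without DOX-positive replicate 2 (0.049). MAFF (chr22:38200767-38216511, plus strand), a small MAF protein that dimerizes with CNC factors such as NRF2, was at 8.64, 10.9 and 10.2 CPM in DOX-negative cells and at 13.5, 10.8 and 13.9 CPM in DOX-positive cells. Replicate 2 of the DOX-positive group fell within the DOX-negative range, and the other two lay above it. The log2 fold change of 0.35 (SE 0.138) did not pass, at an edgeR adjusted p of 0.0635. Without DOX-positive replicate 2 it was 0.46 with an adjusted p of 0.0156, and on the deposited TPM scale it was -0.040.

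**Figure D2:**
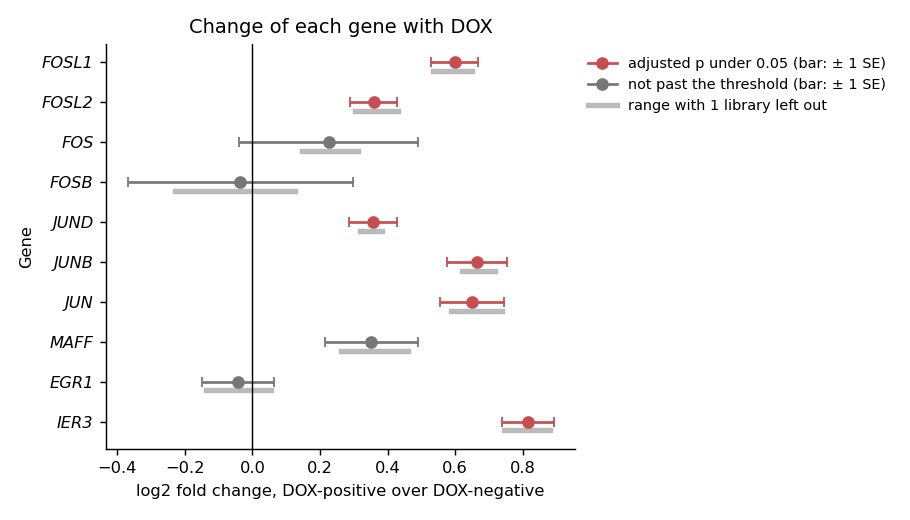
Log2 fold change of each gene, DOX-positive over DOX-negative, from edgeR on counts, with bars of ± 1 SE and a gray band for the range of values when 1 library is left out in turn. The changes past the threshold (red) run from 0.36 for FOSL2 and JUND to 0.82 for IER3, and only the bands of FOSB and EGR1 cross 0. On the deposited TPM scale the values of FOSL2, JUND, FOS and MAFF are slightly below 0.

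The libraries did not contribute evenly to the spread within a group. DOX-positive replicate 2 gave the lowest value of its group in 7 of the 10 genes, compared with 37.4% of all genes tested. DOX-negative replicate 2 gave the highest value of its group in 7 of the 10 genes, compared with 35.3% of all genes. The 6 genes called were called without any single library and in all 12 alternative fits to counts. Over those fits the log2 fold change of FOSL1 ranged from 0.53 to 0.65, that of FOSL2 from 0.30 to 0.43, and that of JUND from 0.32 to 0.38. The ranges were from 0.59 to 0.74 for JUN, from 0.62 to 0.72 for JUNB and from 0.74 to 0.88 for IER3.

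To set levels of different genes beside each other, CPM was divided by the exonic length of each gene in GENCODE 29 (CPM per kb). In DOX-negative cells FOSL1 was the most abundant of the 10 genes at 102 ± 8.20 CPM per kb (SD, n = 3), followed by IER3 at 48.1 ± 1.08 and JUND at 39.3 ± 1.87. FOSL2 (16.9 ± 1.50) and JUNB (15.4 ± 0.891) came next, and their libraries overlapped. EGR1 (8.86 ± 1.01) and JUN (7.87 ± 0.784) also overlapped. MAFF was at 1.77 ± 0.210 CPM per kb, FOS at 0.581 ± 0.0322 and FOSB at 0.259 ± 0.0651. The scarcest members of the FOS family in this line were thus the classical immediate early genes FOS and FOSB.

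In DOX-positive cells the order changed among the genes in the middle of the range. JUNB, at 24.3 ± 1.75 CPM per kb (SD, n = 3), stood above FOSL2 at 21.7 ± 0.481, and JUN, at 12.4 ± 1.11, stood above EGR1 at 8.58 ± 1.06. None of the neighbors in this order overlapped between libraries. FOSL1 remained first at 154 ± 10.5 CPM per kb, IER3 the next at 84.6 ± 8.01 and JUND the third at 50.3 ± 1.63. The deposited TPM was not used for this order because the TPM of IER3 implied a length of 9695 bases, compared with 1356 exonic bases, a ratio of 7.15 that 0.404% of 10899 genes exceeded. For the other 9 genes the ratio lay between 0.582 and 1.32. The cause of this ratio was not tested. The place of IER3 rests on the exonic length: by the deposited TPM it was at 12.6, 17.0 and 8.88 in DOX-negative cells, beside JUN at 11.0, 17.6 and 7.97, and it was below JUND, FOSL2 and JUNB in every library. By TPM, FOSL2 was also above JUNB in every library of both groups.

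The makeup of each family was then described as the share of each member in the summed TPM of its family, a measure that does not depend on the noncoding RNAs. The size of a share does depend on the gene lengths behind the deposited TPM. Those lengths were 1.13 times the exonic length for FOSL1 and 0.754 times for FOSL2. FOSL1 held 78.0%, 78.5% and 81.4% of the FOS family in DOX-negative cells and 82.6%, 81.2% and 82.1% in DOX-positive cells. The groups overlapped (exact permutation test, two-sided, p = 0.2). FOSL2 made up most of the rest, with 19.9% ± 1.88 in DOX-negative and 17.4% ± 0.682 in DOX-positive cells (SD, n = 3; exact permutation p = 0.2). The share of FOS was 0.610% ± 0.00765 and 0.489% ± 0.0463 (SD, n = 3; exact permutation p = 0.1), without overlap between the groups. That of FOSB was 0.252% ± 0.0712 and 0.164% ± 0.0403 (SD, n = 3; exact permutation p = 0.3). The shares of FOS and FOSB rest on between 15 and 51 reads per library, so counting error limits both.

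In the JUN family, JUND held 62.2%, 60.5% and 61.6% in DOX-negative cells and 54.8%, 57.7% and 56.6% in DOX-positive cells, with every DOX-positive library below every DOX-negative library. JUNB held 25.6%, 25.8% and 25.6% in DOX-negative cells and 30.7%, 29.3% and 27.3% in DOX-positive cells, with every DOX-positive library above. For JUN the shares were 12.9% ± 0.764 and 14.5% ± 1.53 (SD, n = 3; exact permutation p = 0.2). The p was 0.1 for both JUND and JUNB, which is the smallest value that an exact permutation test of 3 against 3 libraries can give, and 0.233 after Benjamini-Hochberg adjustment over the 7 shares. The design therefore cannot take these shares past a threshold of 0.05.

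**Figure D3:**
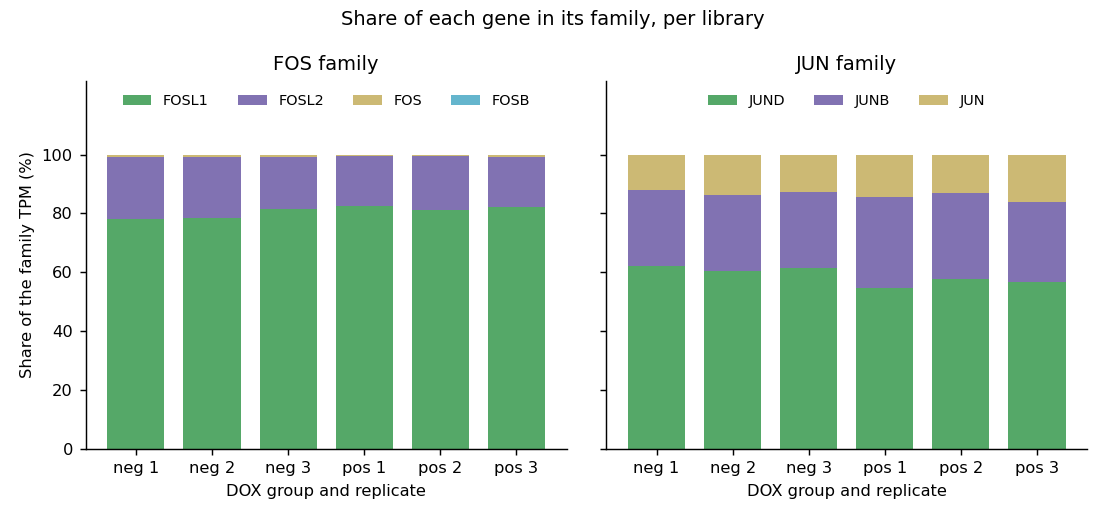
Share of each gene in the summed TPM of its family (%), per library, for the FOS family (left) and the JUN family (right), with neg and pos for the DOX-negative and DOX-positive replicates. FOSL1 takes between 78.0% and 82.6% of the FOS family in all 6 libraries, and JUND falls from a mean of 61.4% to 56.3% of the JUN family while JUNB moves from 25.7% to 29.1%.

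Genes that act with these factors were taken from lists by role, written with earlier results of these data known. Among 12 partners with basic leucine zippers, 9 were tested, 1 rose and 1 fell, and the median log2 fold change was 0.13. For all genes tested, 13.0% were called higher and 13.7% lower. ATF3, a stress-induced factor that dimerizes with JUN proteins, was at 14.3, 15.6 and 12.0 CPM in DOX-negative cells and at 29.1, 22.1 and 28.3 CPM in DOX-positive cells, without overlap. Its log2 fold change of 0.92 ± 0.122 (SE; adjusted p 6.95e-06 by edgeR) lay within 1 SE of that of IER3. ATF2, which pairs with JUN at TGACGTCA sites, fell from 103 ± 7.43 to 81.3 ± 3.82 CPM (SD, n = 3 each), with a log2 fold change of -0.35 (edgeR adjusted p 0.00113). Neither ATF3 (0.47) nor ATF2 (-0.71) was called on the deposited TPM scale. BATF and MAF had 0 reads in every library. For EGR1, the relatives EGR2, EGR3 and EGR4 had at most 8 reads in any library and were not tested. NAB1, a corepressor of EGR proteins, fell from 61.7 ± 0.481 to 42.9 ± 1.72 CPM (log2 fold change -0.52, edgeR adjusted p 2.22e-05), while NAB2 was not called (-0.20, adjusted p 0.413). NAB1 was not called on the deposited TPM scale (-0.85). EGR2, EGR3, EGR4 and NAB2 were named after their values were seen.

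Regulators upstream were called in small numbers, near the 13.0% called higher and 13.7% called lower over all genes. Of the 6 genes for serum response factor and its cofactors, 0 rose and 1 fell, with a median log2 fold change of -0.0023. MRTFB, an actin-regulated cofactor of serum response factor that the table lists as MKL2, fell by 0.40 on the log2 scale (edgeR adjusted p 0.000256). Of 16 kinases, 15 were tested, 3 (20%) rose and 3 (20%) fell. MAPK8, which encodes the JUN kinase JNK1, rose from 110 ± 4.28 to 163 ± 6.28 CPM (SD, n = 3 each), with a log2 fold change of 0.56 (edgeR adjusted p 1.26e-06). MAPK9, which encodes JNK2, fell by 0.36 (adjusted p 0.000495). RPS6KA5, which encodes the nuclear kinase MSK1, fell by 0.66 (adjusted p 5.83e-06), and MAPK7, which encodes ERK5, fell by 0.43 (adjusted p 0.00210). MAPK8 (0.16), MAPK9 (-0.71), RPS6KA5 (-0.91), MAPK7 (-0.73) and MRTFB (-0.73) were not called on the deposited TPM scale. RPS6KA2 and RPS6KA4, which encode RSK3 and MSK2, rose by 0.28 and 0.29 (edgeR adjusted p 0.0195 and 0.0460) but turned negative on the deposited TPM scale (-0.12 and -0.11). The call of RPS6KA2 was lost without DOX-negative replicate 1 (adjusted p 0.0609) or 3 (0.101) or DOX-positive replicate 2 (0.132), where the change was 0.16. That of RPS6KA4 was lost without DOX-negative replicate 1 (0.206) or 3 (0.0981) or DOX-positive replicate 1 (0.235) or 3 (0.147), and in DESeq2 (0.0515). MAPK9, RPS6KA2 and RPS6KA4 were named after their values were seen.

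Other immediate early genes were called higher in 12 of 22 tested, of 23 listed, and lower in 1, with a median log2 fold change of 0.37. The shares over all genes tested were 13.0% higher and 13.7% lower. ZFP36, whose protein promotes decay of mRNAs with AU-rich elements, rose from 23.8 ± 1.12 to 76.8 ± 4.10 CPM (SD, n = 3 each), which as a fitted log2 fold change was 1.69 ± 0.0823 (SE; adjusted p 3.78e-12 by edgeR). SGK1, the serum- and glucocorticoid-regulated kinase, rose from 6.04 ± 0.386 to 17.0 ± 0.257 CPM (log2 fold change 1.49, adjusted p 1.48e-08). The zinc finger gene KLF6 rose from 132 ± 11.8 to 331 ± 34.5 CPM (log2 fold change 1.33, adjusted p 5.16e-11). In each of these genes the groups were separate, and each fitted change was above that of IER3. GEM, a small GTPase gene named as the only member that fell, had a log2 fold change of -0.68 (adjusted p 0.00132). ZFP36 (1.26) and KLF6 (0.91) were also called on the deposited TPM scale, whereas SGK1 (0.82) and GEM (-0.90) were not.

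Genes known as AP-1 targets were called higher in 7 of 16 tested, of 22 listed, and lower in 1. Over all genes tested, 13.0% were called higher and 13.7% lower. The median log2 fold change of the targets was 0.24, compared with -0.0034 over all genes tested. IL6, which encodes an inflammatory cytokine, was at 3.96, 3.68 and 3.38 CPM in DOX-negative cells and at 6.36, 8.36 and 6.86 CPM in DOX-positive cells (log2 fold change 0.97, SE 0.180, edgeR adjusted p 0.000345). HBEGF, which encodes a ligand of the EGF receptor, rose from 37.4 ± 1.78 to 60.1 ± 6.59 CPM (log2 fold change 0.68, adjusted p 4.99e-06). Neither IL6 (0.48) nor HBEGF (0.27) was called on the deposited TPM scale. HMOX1, which encodes the heme-degrading enzyme heme oxygenase 1 and was named as the only target that fell, had a log2 fold change of -0.67 (edgeR adjusted p 0.00424) that did not pass in DESeq2 (adjusted p 0.122). DOX-positive replicate 2 was at 12.1 CPM, compared with 24.1 and 23.1 CPM in the other DOX-positive libraries, and without it the change of HMOX1 was -0.41 (edgeR adjusted p 0.00790). MMP10, SPRR1B and LOR had 0 reads in every library.

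**Figure D4:**
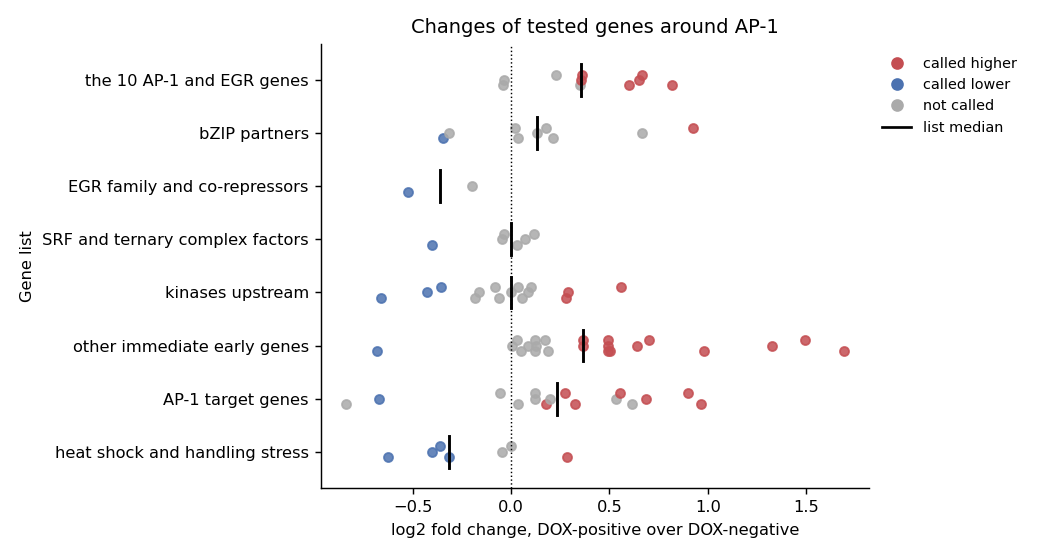
Log2 fold change, DOX-positive over DOX-negative (edgeR on counts), of each tested gene in the lists around AP-1, with red for genes called higher, blue for genes called lower, gray for genes not called and a black bar at each list median. The medians of the 10 genes (0.36) and of the other immediate early genes (0.37) lie above 0, and that of the heat shock genes (-0.32) below. Of the genes followed on the deposited TPM scale, FOS, FOSL2, JUND, MAFF, RPS6KA2, RPS6KA4 and HSPA1B turn slightly negative. The other plotted genes were not followed on that scale.

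Since immediate early genes also respond to the handling of cells, heat shock and stress genes were examined beside them. Of 7 tested, of 8 listed, 1 rose and 4 fell, with a median log2 fold change of -0.32. Among all genes tested, 13.0% were called higher and 13.7% lower. The summed level of the list was between 3106 and 3777 CPM in DOX-negative libraries and between 2600 and 2761 CPM in DOX-positive libraries. Most of this sum came from HSP90AA1 and HSPA8, at means of 1747 and 1276 CPM in DOX-negative cells. HSPA1A (log2 fold change 0.0014, edgeR adjusted p 0.994) and DNAJB1 (-0.048, 0.622) were not called. The chaperone gene HSPH1 fell by 0.63 on the log2 scale (edgeR adjusted p 1.58e-05), HSPB1 by 0.40 (0.00224) and HSP90AA1 by 0.36 (0.000976). HSPH1 (-0.93), HSPB1 (-0.78) and HSP90AA1 (-0.75) were not called on the deposited TPM scale. HSPA8 fell by 0.32 (0.0121), but not in DESeq2 (0.156) nor without DOX-negative replicate 3 (change -0.16, adjusted p 0.107) or DOX-positive replicate 3 (0.0651). HSPA1B rose by 0.29 (0.0281), but its call was lost without DOX-negative replicate 1 (0.116) or 2 (0.0673) or DOX-positive replicate 2 (0.0673) or 3 (0.0671), and its change was -0.079 on the deposited TPM scale. HSPA8, HSPA1A, HSPA1B and DNAJB1 were named after their values were seen. The part of handling in the changes of the 10 genes was not tested.

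Markers of cell identity were checked for the same libraries. Of 7 epithelial markers, 6 were tested and all 6 were higher in DOX-positive cells, compared with 13.0% of all genes tested. The summed level of these markers was between 1235 and 1430 CPM in DOX-negative libraries and between 2087 and 2166 CPM in DOX-positive libraries. The basal keratin KRT5 had at most 2 reads in any library. The luminal prostate genes KLK3 and FOLH1 had 0 reads in every library. Fibroblast markers summed to between 4.27 and 6.27 CPM in all libraries, and 0 of the 2 tested was called. Of 5 leukocyte markers only CD68, a lysosomal protein gene that many cancer cells express, was tested, and it was higher (log2 fold change 0.75, edgeR adjusted p 8.39e-08). PTPRC, the general leukocyte marker of the list, and LYZ had at most 3 reads in any library, and CD3E had 0. The part of the epithelial and CD68 changes in those of the 10 genes was not tested.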

How the data were processed

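Total RNA of triplicate cultures was made into poly(A)-selected stranded libraries (TruSeq Stranded mRNA) by the authors. The submitters' processing notes name STAR, DESeq2 and the GRCh38 (hg38) build; the annotation, the counting step and its strand setting are not given in the sources used here. The deposited count table holds whole-number read counts for 28008 genes, and the deposited TPM table holds values for 25546 genes. Table columns were assigned to samples from the DOX state and the number in their names, which abbreviate the resistant line differently from the sample titles. The 10 genes, and the lists set beside them, were chosen with earlier results of these data known.

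Counts were filtered with filterByExpr, scaled with TMM factors (0.986 to 1.03) and tested with the edgeR (4.0.16) quasi-likelihood test on all 6 libraries with group as the only term, two-sided, with Benjamini-Hochberg adjustment over the 14292 genes left and a threshold of 0.05. CPM values are TMM-scaled. SE values and 95% intervals are of the fitted log2 fold change and are not adjusted. Family shares were compared with an exact permutation test over libraries. Exonic lengths and coordinates were from GENCODE 29 (GRCh38). Alternatives were DESeq2 (1.42.0), other scalings and filters, limma (3.58.1) on log2(TPM + pseudocount) and leaving out each library; R was 4.3.3. The scripts were tested on simulated data. The spread among replicates exceeded sampling noise (chi-square per degree of freedom between 3.65 and 19.0).

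The text names the 10 genes, MUC1, and from each list the 3 called genes with the largest change at an average log2 CPM of at least 1, plus listed genes with 0 counts in every library; other names are said to be chosen after their values were seen. CD68, the low-count markers and the overlapping genes were also chosen that way. List symbols were matched in 4 cases by an older symbol. Items that the rule would name but that are withheld are not reported here.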

Additional observations from a re-analysis of the deposited data

How the results depend on the processing

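With the deposited TPM, the number of the 10 genes called higher was 0 with a pseudocount of 1 and 0 with a pseudocount of 0.1, compared with 6 from counts, and the number whose groups did not overlap was 0 under both. Over all genes, 30 and 29 were called higher and 413 and 379 were called lower, compared with 1861 and 1955. On these scales the median gene was at -0.32 and -0.39, and the log2 fold change turned negative for FOS (-0.099 and -0.15), FOSL2 (-0.033 and -0.032), JUND (-0.037 and -0.036), MAFF (-0.040 and -0.040), RPS6KA2 (-0.12 and -0.12), RPS6KA4 (-0.11 and -0.11) and HSPA1B (-0.079 and -0.10). Relative to that median, FOSL1 was at 0.53 and 0.59 and IER3 at 0.71 and 0.80. Without the 5 short noncoding RNAs the median was -0.025 and all 6 genes were called. Leaving out 1 library at a time moved FOSB between -0.23 and 0.12 and EGR1 between -0.14 and 0.054; the number of the 10 genes called higher was between 6 and 7. The labels do not say whether the replicate numbers pair the cultures. Same-numbered libraries did not deviate together (correlations of deviations -0.0189, -0.0950 and -0.0273). With the number as a block, 1522 genes were called higher and 1636 lower, and 6 of the 10 genes were higher. Of the genes named, the calls of RPS6KA4 (edgeR adjusted p 0.0899) and HSPA1B (0.0512) alone were lost with the block. Filters and the block do not alter the CPM on which overlap is read, and were not run for that count. For the members, 128 of the results under alternatives kept direction and side of the threshold, 13 changed sign and 1 gained the call. Calls of the members were lost in 12, sign changes included, all on the deposited TPM scales. For MUC1 and the other genes followed through the alternatives, calls were lost in 66, sign changes included. Counts of between 15 and 51 per library limit FOS and FOSB, whose intervals span changes in both directions.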

Other observations

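MMP3, a matrix metalloproteinase gene and classical AP-1 target, was removed by the filter on low counts and was picked after its values were seen. It had 0 reads in all DOX-negative libraries and 8, 5 and 4 reads in the DOX-positive libraries. Against a floor of 3 counts over the DOX-negative group it was at least 5.62-fold higher in DOX-positive cells, with the DOX-positive reads taken as exact. This floor allows for counting error only. Fitted without the filter, its edgeR adjusted p was 0.00844. Because MMP3 was picked from these same values, the fold and the p describe it and are not a test. The level of MMP3 remains near the limit of what these libraries can count. MMP13, of the same list, went the other way, with 15, 26 and 23 reads in DOX-negative and 15, 10 and 10 in DOX-positive libraries. Its log2 fold change of -0.84 was not called (edgeR adjusted p 0.121). MMP1 was not called either (0.61, edgeR adjusted p 0.195). MMP1 and MMP13 were also picked after their values were seen.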
